A study of Homo sapiens with 12 samples.

Results

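Histone lysine methyltransferases and demethylases are the enzymes that place and remove methyl groups on histone tails, and 45 of their genes, 28 methyltransferases and 17 demethylases, were followed here through the response of A2780 cells to a cell cycle inhibitor. The genes were taken by name, with older symbols such as MLL or JMJD joined to the current ones through Entrez Gene ID. A gene was measured where the platform annotation gave it a probe of its own, which held for 44 of the 45 genes on the Affymetrix platform (AFFX), among 19777 genes in all, and for 40 on the Applied Biosystems platform (ABI), among 17192. The 40 genes of the second set were measured on both. KMT2C, SETD1A, KDM4B and KDM5A were measured on AFFX alone, and ASH1L was not analysed here.

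A2780 cells are an established line derived from a human ovarian carcinoma. Treated cells received the inhibitor, which is not named, at 3 µM for 6 hours, and control cells were left untreated, with attached cells alone taken from both. RNA of 3 biological replicates was pooled within each condition and the pool was split over 3 arrays per platform, which gave 3 treated and 3 control arrays on AFFX and the same on ABI. The p-values below therefore measure the spread between aliquots of 1 pool per condition and not between cultures, and the 2 platforms read the same pools.

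Methyltransferases take the methyl group from S-adenosylmethionine, and nearly all of those considered here carry a SET domain, with DOT1L as the exception. Methyl marks on lysine 4, 36 and 79 of histone H3 are found mainly on transcribed genes. Those on lysine 9 and lysine 27 of H3 and trimethylation of lysine 20 of H4 mark silent chromatin. Demethylases fall into the flavin-dependent pair KDM1A and KDM1B and the JmjC-domain enzymes, which use iron, oxygen and 2-oxoglutarate. In dividing cells, the marks have to be written again on newly deposited histones after each round of replication.

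Signals are given as log2 values, from RMA on AFFX and from median-normalized chemiluminescence on ABI, whose unit is not stated, so the 2 scales cannot be set against each other. Arrays were compared with limma, and a gene was called when its Benjamini-Hochberg adjusted p, taken over all probes of the platform, was under 0.05 and its change was at least 1.5-fold. Changes are log2(Fold Change), treated minus control, ± SE. Where a gene had several probes, the one with the lowest p in a plain t-test stood for it, which leans towards larger changes. In bulk RNA, fewer cells of a type and less RNA per cell cannot be told apart.

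On AFFX, 25 of the 44 measured members were lower in treated cells (56.8%), where 14.2% of all genes were lower, and none was higher, where 2.49% of all genes were higher. On ABI, 20 of 40 were lower (50%), where 14.8% of all genes were lower, and 1, SETD7, was higher, where 6.31% of all genes were higher. On both platforms, 17 of 40 members were lower (42.5%), against 10.5% of the 16186 genes measured on both, and no member was called in opposite directions. The median change of the members was -0.66 on AFFX and -1.06 on ABI, beside medians of 0.16 and 0.09 over all genes. When each array was centred on ribosomal protein genes, the medians over all genes became -0.04 on AFFX and -0.55 on ABI, and centring on the AFFX hybridisation controls gave -0.35. Without centring, the ribosomal protein genes had median changes of 0.21 on AFFX and 0.61 on ABI. On AFFX 3 of 31 were higher and 2 lower, and on ABI 21 of 38 were higher and none lower. Ribosomal centring takes this rise off every gene, so it is not an independent check of scale. Ribosomal centring gave 26 members lower on AFFX and 27 on ABI with none higher, and hybridisation control centring gave 31 lower on AFFX with none higher. Over all genes on ABI, 2546 were lower and 1085 higher, against 5421 and 88 with ribosomal centring and 2208 and 1469 with quantile normalization. Over all genes on AFFX, 2804 were lower and 493 higher, against 3426 and 109 with ribosomal centring and 5258 and 26 with hybridisation control centring. Under these scalings no member lower on both platforms turned to higher. Some uncalled members did change sign. With hybridisation control centring, EHMT1 (-0.87), KDM4B (-1.16) and KDM8 (-0.72) were called lower on AFFX. For each, a different probe set then stood for the gene from the one that read above 0 without this centring.

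**Figure D1:**
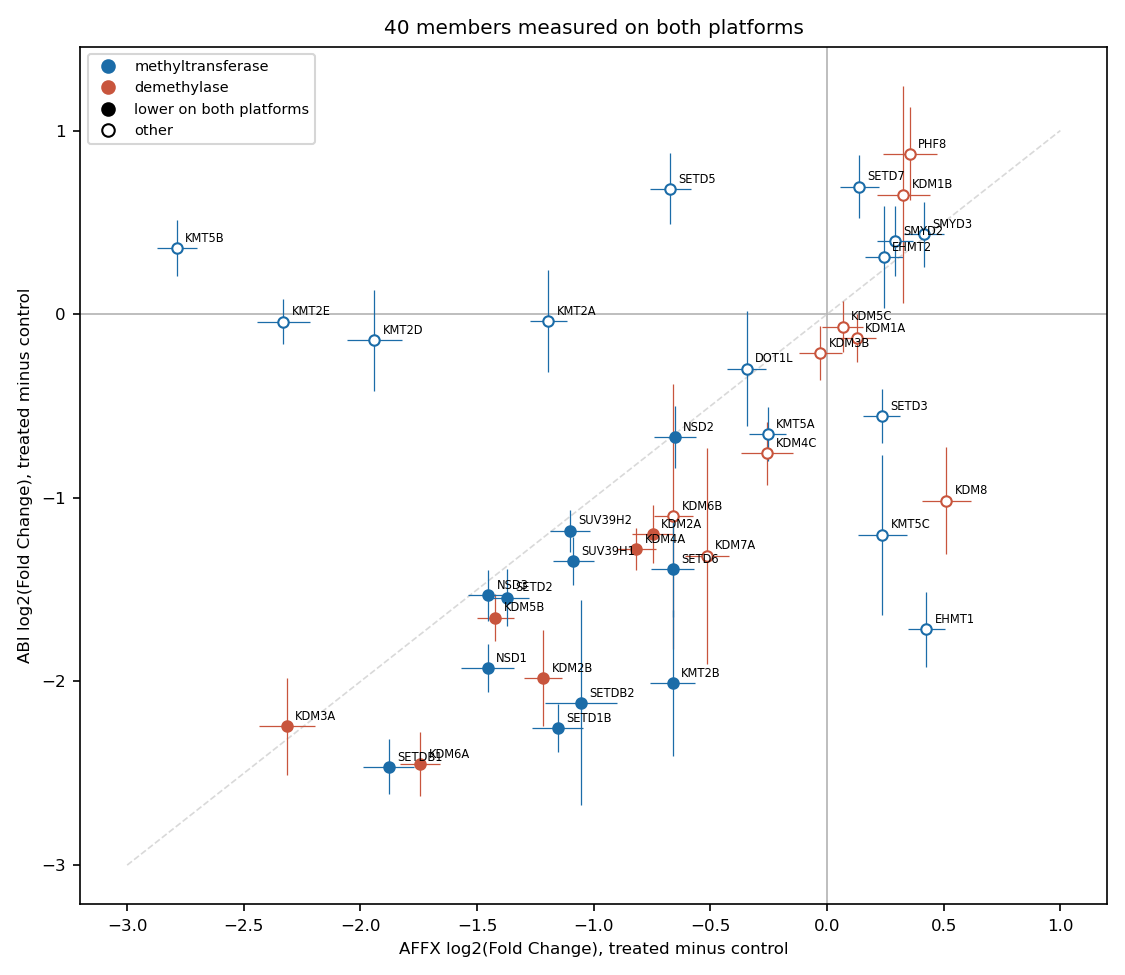
Change between treated and control arrays, as log2(Fold Change), of the 40 members measured on both platforms, AFFX on the horizontal axis and ABI on the vertical axis, with SE bars. Blue points are methyltransferases and red points demethylases. Filled points are the 17 members lower on both platforms, and KMT5B, KMT2E, KMT2D and KMT2A lie at the left near 0 on ABI.

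Checks that concern the arrays as a whole are given here once. The 18 hybridisation control probe sets of AFFX averaged 9.49 to 9.91 in treated arrays and 9.26 to 9.47 in control arrays, without overlap, so transcripts added after labelling read higher in treated arrays too. The ABI file carries no detection flags. As a rough guide to unexpressed genes, probes of leukocyte markers, which an ovarian carcinoma line should lack, had median log2 signals of 4.77 on AFFX and -1.24 on ABI. Leukocyte markers, 16 of 19 measured, summed to 591 to 619 linear signal units in treated AFFX arrays and 505 to 514 in control AFFX arrays, with none called, and to 20.6 to 27.2 in treated ABI arrays and 13.5 to 17.5 in control ABI arrays, with 1 called higher. Epithelial and ovarian markers lay on both sides of that guide on AFFX, with a median of 4.45 in treated and 4.23 in control arrays. EPCAM averaged 4.21 in treated and 4.23 in control AFFX arrays, and CDH1 averaged 4.45 in treated and 4.17 in control AFFX arrays. Above the guide were PAX8 (7.83 in treated and 7.65 in control AFFX arrays) and FOLR1 (6.96 and 6.56). So were KRT8 (6.26 in treated and 6.20 in control AFFX arrays) and KRT18 (6.11 and 5.93). The leukocyte markers CD79A (6.69 in treated and 6.34 in control AFFX arrays) and CD3D (6.10 and 5.72) read at levels like those of KRT8 and KRT18. AFFX signal at that level therefore does not show expression. On ABI, EPCAM averaged -1.18 in treated and -0.15 in control arrays, and KRT8, above the guide, averaged 0.50 in treated and 0.62 in control arrays. PAX8 (-1.07 in treated and -0.55 in control ABI arrays) and FOLR1 (-0.82 and -1.14) lay nearer the guide than KRT8. KRT18 was called lower (-0.87) and MUC16 higher (1.16) on ABI, and none of these markers was called on AFFX. The part of these differences in the results was not tested.

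The members with the largest falls on both platforms were KDM3A, SETDB1 and KDM6A. KDM3A removes mono- and dimethyl marks from H3K9 and was the member whose smaller change of the 2 platforms was largest. KDM3A had AFFX log2 signals of 5.73, 5.97 and 5.55 in treated arrays, against 8.25, 7.95 and 7.99 in control arrays. On ABI, KDM3A had log2 signals of 1.33, 1.45 and 0.56 in treated arrays, against 3.48, 3.36 and 3.25 in control arrays. The groups were far apart on both platforms, and log2(Fold Change) was -2.32 ± 0.12 on AFFX (adjusted p = 1.33e-07) and -2.24 ± 0.27 on ABI (adjusted p = 0.00474) in limma. Of its 2 AFFX probe sets, 1 was lower and the other was not called. SETDB1 trimethylates H3K9 at retroelements and at the targets of KRAB zinc finger proteins. SETDB1 had AFFX log2 signals of 6.79, 7.09 and 6.68 in treated arrays, against 8.78, 8.66 and 8.76 in control arrays. On ABI, SETDB1 had log2 signals of 2.38, 2.71 and 2.72 in treated arrays, against 5.17, 5.00 and 5.05 in control arrays. No treated array reached a control array, and log2(Fold Change) was -1.88 ± 0.11 on AFFX (adjusted p = 2.91e-07) and -2.46 ± 0.15 on ABI (adjusted p = 0.000832) in limma. SETDB1 likewise had 1 of 2 AFFX probe sets lower, and the other was not called.

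KDM6A, also called UTX, removes trimethylation from H3K27 and is a subunit of the KMT2C and KMT2D complexes. KDM6A had AFFX log2 signals of 5.90, 5.86 and 6.01 in treated arrays, against 7.71, 7.73 and 7.57 in control arrays. On ABI, KDM6A had log2 signals of 2.07, 1.70 and 1.56 in treated arrays, against 4.27, 4.30 and 4.10 in control arrays. The groups did not overlap, and log2(Fold Change) was -1.74 ± 0.09 on AFFX (adjusted p = 9.64e-08) and -2.45 ± 0.17 on ABI (adjusted p = 0.00106) in limma. On AFFX, 3 of 4 probe sets of KDM6A were lower. Its relative KDM6B, which acts on the same mark, was lower on AFFX at -0.66 ± 0.08 (limma adjusted p = 0.000119) and was not called on ABI, where the change was -1.10 ± 0.72 (limma adjusted p = 0.343). The ABI control arrays of KDM6B spread widely, with treated arrays at -1.25, -1.47 and -0.86 and control arrays at -1.12, -0.71 and 1.55.

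Promoter windows of RefSeq, 250 bases before to 50 after the gene start on GRCh38.p14, were matched for 42 of the 45 members. They are shown for the leading 3 falls and, for comparison, for KDM1A, a flavin-dependent H3K4 demethylase that was called on neither platform. KDM3A lies at chr2:86441121-86441420, SETDB1 at chr1:150926013-150926312, KDM6A at chrX:44872938-44873237 and KDM1A at chr1:23019218-23019517, all on the plus strand. Capitals mark matches on either strand to the GC box GGGCGG, the CCAAT box CCAAT and the E-box CACGTG.
KDM3A: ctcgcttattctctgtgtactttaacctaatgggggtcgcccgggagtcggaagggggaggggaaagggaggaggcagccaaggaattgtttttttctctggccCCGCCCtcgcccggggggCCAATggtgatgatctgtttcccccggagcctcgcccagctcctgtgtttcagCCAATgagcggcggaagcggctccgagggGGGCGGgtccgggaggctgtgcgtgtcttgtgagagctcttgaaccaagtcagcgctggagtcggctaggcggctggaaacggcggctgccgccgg
SETDB1: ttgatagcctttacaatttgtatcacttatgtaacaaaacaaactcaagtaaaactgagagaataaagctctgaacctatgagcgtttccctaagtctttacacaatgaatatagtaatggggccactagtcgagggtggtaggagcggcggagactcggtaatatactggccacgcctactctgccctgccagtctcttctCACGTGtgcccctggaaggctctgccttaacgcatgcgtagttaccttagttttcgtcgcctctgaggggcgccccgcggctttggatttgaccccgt
KDM6A: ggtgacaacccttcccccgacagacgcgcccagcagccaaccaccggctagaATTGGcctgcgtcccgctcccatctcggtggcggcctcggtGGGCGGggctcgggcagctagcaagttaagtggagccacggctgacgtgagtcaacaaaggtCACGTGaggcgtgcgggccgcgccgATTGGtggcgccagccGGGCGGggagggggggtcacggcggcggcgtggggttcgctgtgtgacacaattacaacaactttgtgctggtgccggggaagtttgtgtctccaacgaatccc
KDM1A: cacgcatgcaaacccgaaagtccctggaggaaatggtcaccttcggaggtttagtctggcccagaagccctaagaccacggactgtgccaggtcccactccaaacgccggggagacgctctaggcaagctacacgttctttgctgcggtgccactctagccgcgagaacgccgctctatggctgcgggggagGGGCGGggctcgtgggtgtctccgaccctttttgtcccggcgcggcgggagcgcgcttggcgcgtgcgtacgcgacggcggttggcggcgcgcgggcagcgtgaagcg

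Motif counts were set side by side, without a test, for groups of windows. The GC box was found in 10 of the 15 windows of members lower on both platforms, in 9 of 12 windows of members called on neither, and in 44.6% of all 27305 windows of this length. The CCAAT box was found in 7 of the 15 and 4 of the 12 windows, and in 35.7% of all windows. The E-box, which the SETDB1 and KDM6A windows above hold, was found in 4 of the 15 and 1 of the 12, and in 7.43% of all windows. The TATA box letters TATAAA were in none of the 42 member windows and in 12% of all windows. CpG pairs numbered 29 at the median in the 15 windows, 32 in the 12 and 14 over all windows. These matches are descriptions of letters and show no binding.

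The 4 measured methyltransferases of H3K36 were lower on both platforms, where 10.5% of all genes were. NSD1, NSD2 and NSD3 place mono- and dimethylation on H3K36, and SETD2 adds the trimethyl state behind elongating RNA polymerase II. NSD1 had AFFX log2 signals of 6.56, 6.67 and 6.22 in treated arrays, against 7.90, 7.95 and 7.96 in control arrays. NSD1 had ABI log2 signals of 2.51, 2.59 and 2.49 in treated arrays, against 4.57, 4.51 and 4.30 in control arrays. Treated arrays lay below every control array, and log2(Fold Change) was -1.45 ± 0.11 on AFFX (adjusted p = 2.7e-06) and -1.93 ± 0.13 on ABI (adjusted p = 0.000983) in limma. NSD3 had AFFX log2 signals of 6.11, 6.04 and 6.26 in treated arrays, against 7.66, 7.54 and 7.56 in control arrays. NSD3 had ABI log2 signals of 1.49, 1.74 and 1.45 in treated arrays, against 3.13, 3.12 and 3.02 in control arrays. The NSD3 groups were as clearly separate, and log2(Fold Change) was -1.45 ± 0.09 on AFFX (adjusted p = 3.86e-07) and -1.53 ± 0.14 on ABI (adjusted p = 0.00191) in limma, although the AFFX probe set of NSD3 with the highest mean changed by -0.11 and was not called.

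For SETD2, the AFFX log2 signals were 6.85, 6.94 and 6.71 in treated arrays, against 8.34, 8.14 and 8.13 in control arrays. On ABI, SETD2 had log2 signals of 1.96, 1.56 and 1.76 in treated arrays, against 3.41, 3.30 and 3.19 in control arrays. The groups did not overlap, and log2(Fold Change) was -1.37 ± 0.10 on AFFX (adjusted p = 1.13e-06) and -1.54 ± 0.16 on ABI (adjusted p = 0.00282) in limma. Without treated replicate 3 on AFFX another SETD2 probe set was chosen, and the change was -0.39 (limma adjusted p = 0.00517), short of 1.5-fold. NSD2, whose gene is translocated in some myelomas, showed the smallest shift of the 17 shared members. NSD2 had AFFX log2 signals of 6.80, 6.80 and 6.61 in treated arrays, against 7.48, 7.30 and 7.39 in control arrays. On ABI, NSD2 had log2 signals of 0.55, 0.29 and 0.48 in treated arrays, against 1.32, 1.12 and 0.86 in control arrays. These groups did not overlap either, and log2(Fold Change) was -0.65 ± 0.09 on AFFX (adjusted p = 0.00026) and -0.67 ± 0.17 on ABI (adjusted p = 0.0441) in limma.

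The NSD2 call on ABI rested on 1 of 3 probes. A further probe was called higher, at 2.76, 1.98 and 1.95 in treated arrays, against 0.15, 0.74 and 1.28 in control arrays (change 1.51 ± 0.37, limma adjusted p = 0.0404), and the remaining probe changed by -0.12 ± 0.11 (limma adjusted p = 0.512). On AFFX, 1 of its 6 probe sets was lower and 5 were not called. The ABI call was also lost when any of the 6 arrays was left out, with adjusted p of 0.0841, 0.122 and 0.105 without treated replicates 1, 2 and 3, and 0.101, 0.125 and 0.057 without control replicates 1, 2 and 3. For NSD2 the probes of 1 gene thus gave values on both sides of 0.

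KDM2A and KDM2B, which remove H3K36 dimethylation, were lower on both platforms as well. They bind unmethylated CpG islands through a CXXC zinc finger. KDM2B had AFFX log2 signals of 7.47, 7.41 and 7.43 in treated arrays, against 8.74, 8.60 and 8.61 in control arrays. KDM2B had ABI log2 signals of -1.22, -0.62 and -0.69 in treated arrays, against 1.38, 1.32 and 0.72 in control arrays. Its treated and control arrays were separate on both, and log2(Fold Change) was -1.22 ± 0.08 on AFFX (adjusted p = 8.28e-07) and -1.98 ± 0.26 on ABI (adjusted p = 0.0067) in limma. KDM2A had AFFX log2 signals of 7.03, 7.01 and 7.20 in treated arrays, against 7.90, 7.79 and 7.79 in control arrays. KDM2A had ABI log2 signals of 2.05, 2.35 and 1.97 in treated arrays, against 3.47, 3.25 and 3.24 in control arrays. The same separation was seen, and log2(Fold Change) was -0.75 ± 0.09 on AFFX (adjusted p = 7.27e-05) and -1.20 ± 0.16 on ABI (adjusted p = 0.00689) in limma. All 3 AFFX probe sets of KDM2A were lower, and without control replicate 3 another of them stood for KDM2A, at -1.56. Both ABI probes of KDM2B were lower.

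KDM4A and KDM4C remove trimethylation from H3K9 and H3K36. KDM4A had AFFX log2 signals of 7.08, 7.25 and 7.15 in treated arrays, against 7.91, 7.99 and 8.02 in control arrays. KDM4A had ABI log2 signals of 3.10, 2.96 and 3.07 in treated arrays, against 4.34, 4.28 and 4.35 in control arrays. The groups did not overlap, and log2(Fold Change) was -0.82 ± 0.08 on AFFX (adjusted p = 2.5e-05) and -1.28 ± 0.12 on ABI (adjusted p = 0.00202) in limma. KDM4C was lower on ABI alone, at 0.88, 0.66 and 1.16 in treated arrays, against 1.66, 1.57 and 1.75 in control arrays (-0.76 ± 0.17, limma adjusted p = 0.032). Its AFFX log2 signals of 4.02, 3.72 and 3.72 in treated arrays, against 4.20, 3.91 and 4.11 in control arrays stood under the leukocyte marker guide and gave no call (-0.26 ± 0.11, limma adjusted p = 0.0886). The ABI call of KDM4C was lost in 5 of 6 fits with 1 array left out, with adjusted p of 0.0858 and 0.0844 without treated replicates 1 and 2, and 0.0815, 0.0838 and 0.0977 without control replicates 1, 2 and 3. KDM4B, on AFFX alone, was not called at 0.33 ± 0.08 (limma adjusted p = 0.0104). Of its 8 probe sets 1 was lower, at -0.74 ± 0.12, and without treated replicate 2 a lower probe set stood for KDM4B with a change of -0.89 (limma adjusted p = 3.56e-05). The probe set that stood for KDM4B was under the leukocyte marker guide in both groups, at means of 4.24 in treated and 3.91 in control arrays. Under other scalings, too, a different probe set stood for KDM4B, at -0.57 with ribosomal centring and -0.48 with array medians.

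**Figure D2:**
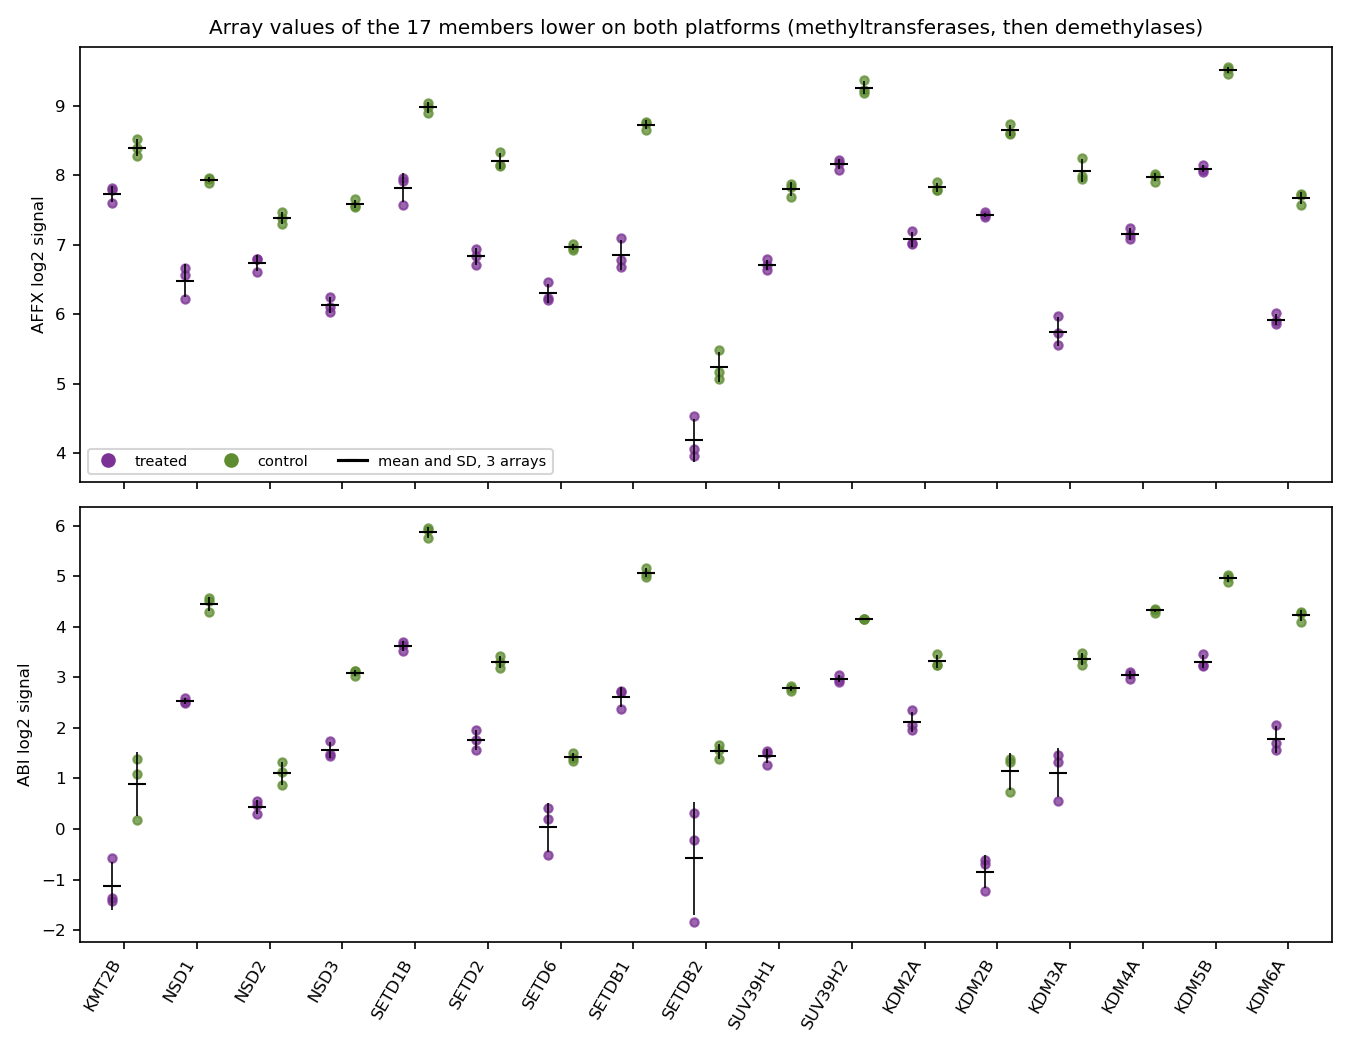
Log2 signal on each of the 3 treated arrays (purple, left) and 3 control arrays (green, right) of AFFX (upper panel) and ABI (lower panel) for the 17 members lower on both platforms, with the mean and SD of each group in black. The treated arrays lie under the control arrays on both platforms. The members shown were selected by their lower call, which nearly fixes this separation in advance, so it is no further result. SETDB2 and KMT2B have the widest spread on ABI.

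Of the 6 methyltransferases of H3K9, 4 were lower on both platforms, where 10.5% of all genes were. SETDB1 is described above, and SUV39H1, SUV39H2 and SETDB2 were the others. SUV39H1 and SUV39H2 trimethylate H3K9 in pericentromeric heterochromatin, where HP1 proteins bind the mark. SUV39H1 had AFFX log2 signals of 6.79, 6.71 and 6.64 in treated arrays, against 7.84, 7.69 and 7.88 in control arrays. SUV39H1 had ABI log2 signals of 1.51, 1.28 and 1.54 in treated arrays, against 2.79, 2.73 and 2.83 in control arrays. The groups were separate, and log2(Fold Change) was -1.09 ± 0.09 on AFFX (adjusted p = 3.57e-06) and -1.35 ± 0.13 on ABI (adjusted p = 0.00254) in limma. SUV39H2 had AFFX log2 signals of 8.18, 8.22 and 8.08 in treated arrays, against 9.37, 9.24 and 9.19 in control arrays. SUV39H2 had ABI log2 signals of 3.05, 2.95 and 2.91 in treated arrays, against 4.15, 4.15 and 4.15 in control arrays. The pair thus fell by like amounts on AFFX, and for SUV39H2 log2(Fold Change) was -1.10 ± 0.09 on AFFX (adjusted p = 2.85e-06) and -1.18 ± 0.11 on ABI (adjusted p = 0.00247) in limma.

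SETDB2 is a relative of SETDB1 with its own SET domain. SETDB2 had AFFX log2 signals of 4.06, 4.54 and 3.96 in treated arrays, against 5.48, 5.07 and 5.17 in control arrays, so the treated arrays lay under the leukocyte marker guide. On ABI, SETDB2 had log2 signals of -1.84, 0.31 and -0.22 in treated arrays, against 1.56, 1.38 and 1.66 in control arrays. Treated ABI arrays spread over more than 2 log2 units, and log2(Fold Change) was -1.05 ± 0.15 on AFFX (adjusted p = 0.000367) and -2.12 ± 0.56 on ABI (adjusted p = 0.0493) in limma. Of the 6 AFFX probe sets of SETDB2, 1 was lower and 5 were not called. The ABI call was lost without treated replicate 3 (adjusted p = 0.0942) and without control replicates 1, 2 and 3 (adjusted p = 0.119, 0.119 and 0.126).

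EHMT1 and EHMT2, known as GLP and G9a, form the dimer that places mono- and dimethylation on H3K9 in euchromatin. EHMT1 was lower on ABI, at -0.69, -1.36 and -1.18 in treated arrays, against 0.59, 0.73 and 0.58 in control arrays (-1.71 ± 0.20, limma adjusted p = 0.00483). Its AFFX log2 signals ran the other way, at 5.06, 4.98 and 5.04 in treated arrays, against 4.62, 4.54 and 4.65 in control arrays, which was short of a 1.5-fold change (0.43 ± 0.08, limma adjusted p = 0.00204). The AFFX probe set of EHMT1 with the highest mean changed by -0.46, and the other ABI probe was not called, so EHMT1 differed between its own probes as well. The AFFX control arrays of EHMT1 averaged 4.60, under the leukocyte marker guide. With hybridisation control centring another AFFX probe set stood for EHMT1, at -0.87 (limma adjusted p = 8.79e-05), so its AFFX direction depended on the probe set. EHMT2 was called on neither platform, with changes of 0.24 on AFFX and 0.31 on ABI. Among the H3K9 demethylases, KDM3B was not called either, with changes of -0.03 on AFFX and -0.21 on ABI, while its relative KDM3A led the falls.

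Methyltransferases of H3K4 were lower in 5 of 7 measured members on AFFX and in 2 of 5 on ABI, with KMT2B and SETD1B lower on both. The shares over all genes were 14.2% on AFFX and 14.8% on ABI. SETD1B and SETD1A carry the bulk of promoter H3K4 trimethylation in the complexes called COMPASS. SETD1B had AFFX log2 signals of 7.93, 7.58 and 7.97 in treated arrays, against 9.05, 8.98 and 8.90 in control arrays. SETD1B had ABI log2 signals of 3.70, 3.64 and 3.52 in treated arrays, against 5.95, 5.92 and 5.75 in control arrays. Treated arrays were low throughout, and log2(Fold Change) was -1.15 ± 0.11 on AFFX (adjusted p = 1.36e-05) and -2.25 ± 0.13 on ABI (adjusted p = 0.000729) in limma. SETD1A was read by 1 AFFX probe set and was not called, at -0.08 ± 0.17 (limma adjusted p = 0.74), with treated arrays at 7.92, 7.67 and 7.09.

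KMT2B, also known as MLL2 or MLL4, writes H3K4 methylation at promoters. KMT2B had AFFX log2 signals of 7.61, 7.79 and 7.82 in treated arrays, against 8.40, 8.28 and 8.53 in control arrays. On ABI, KMT2B had log2 signals of -1.36, -1.43 and -0.58 in treated arrays, against 0.18, 1.09 and 1.38 in control arrays. The groups did not overlap, and log2(Fold Change) was -0.66 ± 0.10 on AFFX (adjusted p = 0.000369) and -2.01 ± 0.40 on ABI (adjusted p = 0.0229) in limma. Of 3 AFFX probe sets for KMT2B 1 was lower, and without control replicate 3 another was chosen and called higher (0.66, limma adjusted p = 0.00102). The ABI call was lost without treated replicates 1 and 2 (adjusted p = 0.0708 and 0.0744) and without control replicates 2 and 3 (adjusted p = 0.0811 and 0.068).

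The remaining members of the MLL family were lower on AFFX alone. KMT2D, which with KMT2C places H3K4 monomethylation at enhancers, had AFFX log2 signals of 6.75, 6.77 and 6.48 in treated arrays, against 8.83, 8.55 and 8.44 in control arrays (-1.94 ± 0.12, limma adjusted p = 4.04e-07). Without treated replicate 3 another AFFX probe set stood for KMT2D, at -0.66 (limma adjusted p = 0.00017), and the brightest probe set read -0.84, so the size of this fall depended on 1 array and on the probe set. Its ABI probe read -1.56, -0.81 and -0.94 in treated arrays, against -0.58, -1.22 and -1.09 in control arrays, with overlapping groups near the leukocyte marker guide (-0.14 ± 0.28, limma adjusted p = 0.763), and KMT2D read slightly above 0 on ABI without treated or control replicate 1. KMT2C, which only AFFX measured with probe sets of its own, had log2 signals of 6.81, 6.92 and 6.78 in treated arrays, against 8.15, 8.11 and 7.88 in control arrays (-1.21 ± 0.10, limma adjusted p = 2.91e-06). The groups were separate for both genes on AFFX. KMT2A, the MLL gene of leukaemia translocations, was lower on AFFX at -1.20 ± 0.08 (limma adjusted p = 7.53e-07), by 4 of its 11 probe sets. On ABI its single probe, likewise near the guide, was not called at -0.04 ± 0.28 (limma adjusted p = 0.944).

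SETD7, which monomethylates H3K4 and many other proteins, was the only member called higher, on ABI, at 2.40, 2.25 and 2.34 in treated arrays, against 1.93, 1.42 and 1.56 in control arrays (0.70 ± 0.17, limma adjusted p = 0.0414). On AFFX it changed by 0.14 ± 0.08 (limma adjusted p = 0.205) and was not called, and the sign turned with ribosomal (-0.01) and hybridisation control centring (-0.28). The ABI call was lost without treated replicates 1, 2 and 3 (adjusted p = 0.109, 0.0943 and 0.107) and without control replicates 2 and 3 (adjusted p = 0.119 and 0.117). It was also lost when arrays were centred on ribosomal protein genes.

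Of the demethylases of H3K4, 2 of 5 were lower on AFFX, where 14.2% of all genes were. On ABI 1 of 4 was lower, where 14.8% of all genes were. KDM5B removes tri- and dimethylation from H3K4 and was lower on both platforms. KDM5B had AFFX log2 signals of 8.05, 8.15 and 8.08 in treated arrays, against 9.53, 9.47 and 9.56 in control arrays. On ABI, KDM5B had log2 signals of 3.23, 3.25 and 3.45 in treated arrays, against 5.02, 4.89 and 4.98 in control arrays. The groups were separate, and log2(Fold Change) was -1.42 ± 0.08 on AFFX (adjusted p = 2.31e-07) and -1.65 ± 0.13 on ABI (adjusted p = 0.00132) in limma, with both ABI probes and 3 of 5 AFFX probe sets lower. KDM5A, which binds the retinoblastoma protein, was lower on AFFX at -0.90 ± 0.09 (limma adjusted p = 1.7e-05), and without control replicate 1 another probe set stood for KDM5A with a change of -0.52, short of 1.5-fold. The treated arrays of KDM5A averaged 4.20, under the leukocyte marker guide, and its probe set with the highest mean changed by -0.58 and was not called. KDM5C, from the X chromosome, was not called, with changes of 0.07 on AFFX and -0.07 on ABI. The flavin enzymes KDM1A, the catalytic subunit of CoREST, and KDM1B were not called either, with changes of 0.13 on AFFX and -0.13 on ABI for KDM1A and 0.33 on AFFX and 0.65 on ABI for KDM1B.

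None of the 3 methyltransferases of H4K20 was called on both platforms, where 10.5% of all genes were lower. KMT5A places the monomethyl mark in late cell cycle phases, and KMT5B and KMT5C carry it on to the di- and trimethyl states. KMT5B had the largest change of all members on AFFX, at 5.04, 5.00 and 4.93 in treated arrays, against 7.81, 7.85 and 7.67 in control arrays (-2.79 ± 0.09, limma adjusted p = 6.12e-09). Its ABI probe read 2.70, 2.55 and 2.32 in treated arrays, against 2.19, 2.25 and 2.04 in control arrays (0.36 ± 0.15, limma adjusted p = 0.16). So treated arrays were far below control arrays on AFFX and slightly above them on ABI, where the direction depended on scaling, at -0.22 with ribosomal centring and 0.61 with quantile normalization. A further AFFX probe set of KMT5B was lower, at -1.63 ± 0.11, while the third, with the highest mean, changed by 0.10 ± 0.10 (limma adjusted p = 0.418). Probes of KMT5B thus differed within AFFX as well as between the platforms, and which transcripts each probe reads was not tested.

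KMT5A was lower on ABI, at 1.33, 1.61 and 1.28 in treated arrays, against 2.10, 1.94 and 2.13 in control arrays (-0.65 ± 0.15, limma adjusted p = 0.0324). Its AFFX arrays did not overlap but changed by -0.25 ± 0.08 (limma adjusted p = 0.0263), under the 1.5-fold limit. On ABI 1 of the 4 KMT5A probes was lower, and the call was lost without treated replicates 1 and 3 (adjusted p = 0.09 and 0.0952) and without control replicates 1, 2 and 3 (adjusted p = 0.0848, 0.0781 and 0.099). KMT5C was not called, with changes of 0.24 on AFFX and -1.20 on ABI. DOT1L, the only known methyltransferase of H3K79, was not called, with changes of -0.34 on AFFX and -0.30 on ABI.

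Of the 6 methyltransferases that act mainly on other proteins, or whose activity on histones is in doubt, 3 were lower on AFFX, where 14.2% of all genes were, and 1 on ABI, near the 14.8% of all genes there. SETD6, which methylates the NF-kappa-B subunit RELA, was lower on both platforms. SETD6 had AFFX log2 signals of 6.21, 6.46 and 6.24 in treated arrays, against 6.93, 6.95 and 7.02 in control arrays. On ABI, SETD6 had log2 signals of 0.42, 0.19 and -0.51 in treated arrays, against 1.34, 1.51 and 1.41 in control arrays. The groups were separate, and log2(Fold Change) was -0.66 ± 0.09 on AFFX (adjusted p = 0.000251) and -1.39 ± 0.26 on ABI (adjusted p = 0.0204) in limma. Its ABI call was lost without treated replicate 2 (adjusted p = 0.0514) and without control replicates 1, 2 and 3 (adjusted p = 0.0591, 0.082 and 0.0661).

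KMT2E, a chromatin-bound relative of the MLL proteins for which no methyltransferase activity is established, had AFFX log2 signals of 4.41, 4.48 and 4.30 in treated arrays, against 6.97, 6.69 and 6.53 in control arrays (-2.33 ± 0.11, limma adjusted p = 8.82e-08). Its ABI probe read 2.83, 2.87 and 2.82 in treated arrays, against 3.01, 2.85 and 2.78 in control arrays, with overlapping groups (-0.04 ± 0.12, limma adjusted p = 0.857), and its ABI change became -0.62 (limma adjusted p = 0.0112) with ribosomal centring and 0.21 with quantile normalization. The treated AFFX arrays of KMT2E were under the leukocyte marker guide, and the AFFX probe set with the highest mean fell by less, at -0.84. SETD5, a SET-domain protein linked to intellectual disability, had AFFX log2 signals of 9.32, 9.32 and 9.13 in treated arrays, against 9.95, 9.86 and 9.98 in control arrays (-0.67 ± 0.09, limma adjusted p = 0.000174). A further probe set of SETD5 was called higher, at 5.48, 5.13 and 5.15 in treated arrays, against 4.67, 4.59 and 4.35 in control arrays (0.72 ± 0.12, limma adjusted p = 0.00082). On ABI SETD5 read 0.85, 0.54 and 0.70 in treated arrays, against -0.25, -0.03 and 0.32 in control arrays and was not called (0.68 ± 0.19, limma adjusted p = 0.0591), but was called higher without dim probes and with the mean of all probes (limma adjusted p = 0.0321 and 0.0491). The AFFX call of SETD5 was lost without control replicates 1 and 3, with changes of -0.46 and -0.56, so its direction differed between probes and between platforms.

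SETD3, which methylates a histidine of actin, was not called, with changes of 0.23 on AFFX and -0.56 on ABI. SMYD2, which methylates p53 among other proteins, changed by 0.29 on AFFX and 0.40 on ABI, and SMYD3, which methylates MAP3K2, by 0.42 on AFFX and 0.43 on ABI, with no call. The PHD-finger demethylases were not called: PHF8, of H3K9 and H4K20, changed by 0.36 on AFFX and 0.87 on ABI, and KDM7A, of H3K9 and H3K27, by -0.51 on AFFX and -1.31 on ABI. KDM8, a JmjC enzyme better known as an arginine hydroxylase, changed by 0.51 on AFFX and -1.02 on ABI, also without a call. Without treated replicate 2 on ABI, KDM7A (-1.91, limma adjusted p = 0.0492) and KDM8 (-1.29, limma adjusted p = 0.0339) were lower, and without control replicate 3 on AFFX KDM8 was higher (0.62, limma adjusted p = 0.00102). Without treated replicate 3 on AFFX another probe set stood for KDM8, at -0.40 (limma adjusted p = 0.00739), and its brightest probe set read -0.30, so the AFFX direction of KDM8 depended on the probe set. The ABI probe of KDM8 with the highest mean changed by 0.19.

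Counted over all their probes, members were lower in 46 of 149 AFFX probe sets (30.9%), where 8.95% of all probe sets were lower, and in 25 of 63 ABI probes (39.7%), where 10.1% of all probes were. Among the 25 members lower on AFFX, 21 had at least 1 probe set that was not lower, and the remaining 4 were lower in every probe set, 3 of them having only 1. When the probe with the highest mean stood for each gene, 21 of these 25 calls remained on AFFX and 17 of 20 on ABI. Of the 17 members lower on both platforms, 14 remained so, with NSD2, NSD3 and SETD6 dropping out.

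**Figure D3:**
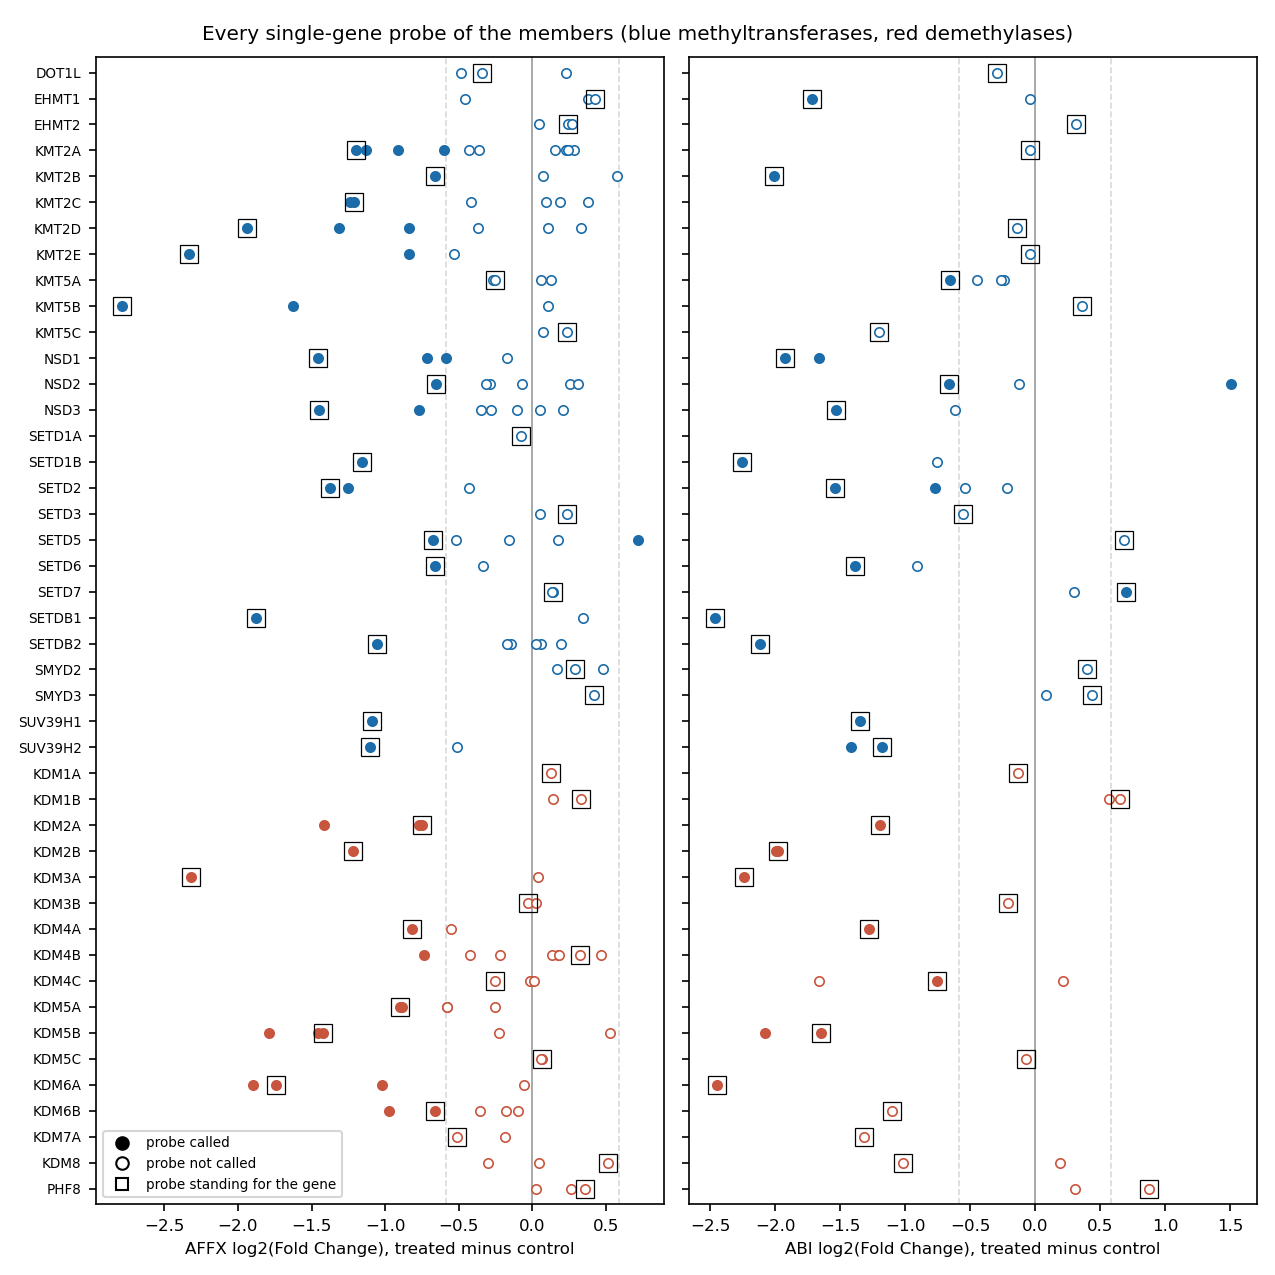
Change between treated and control arrays, as log2(Fold Change), of every single-gene probe of the members, AFFX at left and ABI at right, 1 row per gene, methyltransferases (blue) above demethylases (red). Filled points are called probes, squares mark the probe that stands for the gene, and dashed lines mark 1.5-fold. Probe sets of KMT5B, KMT2D, SETDB1 and SETD5, among others, reach both sides of 0 on AFFX, and probes of NSD2, among others, do on ABI. Those of SETD5 on AFFX and NSD2 on ABI include probes called in opposite directions.

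Writers and erasers were set side by side by their counts and medians. On AFFX 17 of 27 methyltransferases (63.0%) and 8 of 17 demethylases (47.1%) were lower, with median changes of -0.67 and -0.51. On ABI 13 of 25 methyltransferases (52%) and 7 of 15 demethylases (46.7%) were lower, with median changes of -0.67 and -1.10. On both platforms together the counts were 11 of 25 (44.0%) and 6 of 15 (40.0%). Over all genes, 14.2% were lower on AFFX, 14.8% on ABI and 10.5% on both. The order of the medians was not the same on the 2 platforms, but with the mean of all probes the AFFX medians were -0.20 for methyltransferases and -0.35 for demethylases, so on AFFX it depended on probe choice, and no test was run on it, since genes are not replicates. Leaving out 1 array moved the AFFX medians between -0.74 and -0.63 for methyltransferases and between -0.71 and -0.48 for demethylases, so these ranges overlapped. The ABI medians moved between -0.79 and -0.63 for methyltransferases and between -1.24 and -1.01 for demethylases, without overlap.

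The change differed between the platforms for 11 of 40 members by a limma interaction test, where 15.1% of all 16186 genes differed. KMT5B, KMT2E, KMT2D, SETD5 and KMT2A had the lower change on AFFX, and EHMT1, KDM8, SETD1B, SETD3, KDM6A and KDM4A had the lower change on ABI. Of these, KMT5B and SETD5 were above 0 on ABI and EHMT1, KDM8 and SETD3 above 0 on AFFX, each without a call. Among the 17 members lower on both platforms, 16 had the larger fall on ABI, with KDM3A as the exception, and for 3 of them, SETD1B, KDM6A and KDM4A, this difference passed the test. The paper reports a slightly wider span of fold changes on ABI for differentially expressed genes in general. The share of all genes with the larger fall on ABI was not counted here, so this is not shown to be particular to the members. The KMT2D difference was lost without AFFX treated replicate 3 (0.52, adjusted p = 0.353), as was that of KDM8 (-0.61, adjusted p = 0.305). The differences of KMT2A and KDM6A kept their direction but lost the call without single arrays, as listed with the values of each difference further on.

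Related gene lists are given beside the members by their counts of genes lower on both platforms, where 10.5% of all genes were. Among 19 other methyltransferase and demethylase genes, 16 had probes on both platforms and 6 of these were lower on each, with RIOX1 (-3.04 on AFFX and -3.97 on ABI), a ribosomal hydroxylase, PRDM2 (-2.02 on AFFX and -1.98 on ABI), JMJD6 (-1.93 on AFFX and -2.78 on ABI) and PRDM4 (-1.16 on AFFX and -2.03 on ABI) ahead. Histone acetyltransferases were lower in 5 of 12, among them KAT5 (-1.71 on AFFX and -2.63 on ABI), the catalytic subunit of the TIP60 complex. CREBBP (-1.67 on AFFX and -1.58 on ABI) and EP300 (-1.89 on AFFX and -1.16 on ABI) were also among them. Deacetylases were lower in 2 of 15, a share near that of all genes, SIRT1 (-3.16 on AFFX and -3.18 on ABI) and HDAC4 (-0.96 on AFFX and -1.11 on ABI). The COMPASS partner subunits, which serve the H3K4 enzymes, were lower in 4 of 13: NCOA6 (-1.34 on AFFX and -1.44 on ABI), PAXIP1 (-1.34 on AFFX and -1.07 on ABI), WDR82 (-1.26 on AFFX and -0.97 on ABI) and RBBP5 (-0.67 on AFFX and -0.69 on ABI). CoREST partners of KDM1A were lower in 3 of 10, led by RCOR3 (-1.26 on AFFX and -1.48 on ABI). No test compared these lists with the members.

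Readers of methyl-lysine were lower in 6 of 22, with ING2 (-1.64 on AFFX and -1.82 on ABI), CDYL (-1.35 on AFFX and -1.93 on ABI) and BRPF3 (-1.30 on AFFX and -2.40 on ABI) among them. ING proteins bind H3K4 trimethylation, and CDYL binds methylated H3K9 and H3K27. Arginine methyltransferases were lower in 2 of 9, PRMT9 (-1.68 on AFFX and -2.98 on ABI) and PRMT6 (-0.95 on AFFX and -1.06 on ABI). Of the 7 measured genes of the S-adenosylmethionine cycle, 1 was lower, a share near the 10.5% of all genes, and this was MAT2A (-1.94 on AFFX and -1.02 on ABI), the enzyme that makes the methyl donor.

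**Figure D4:**
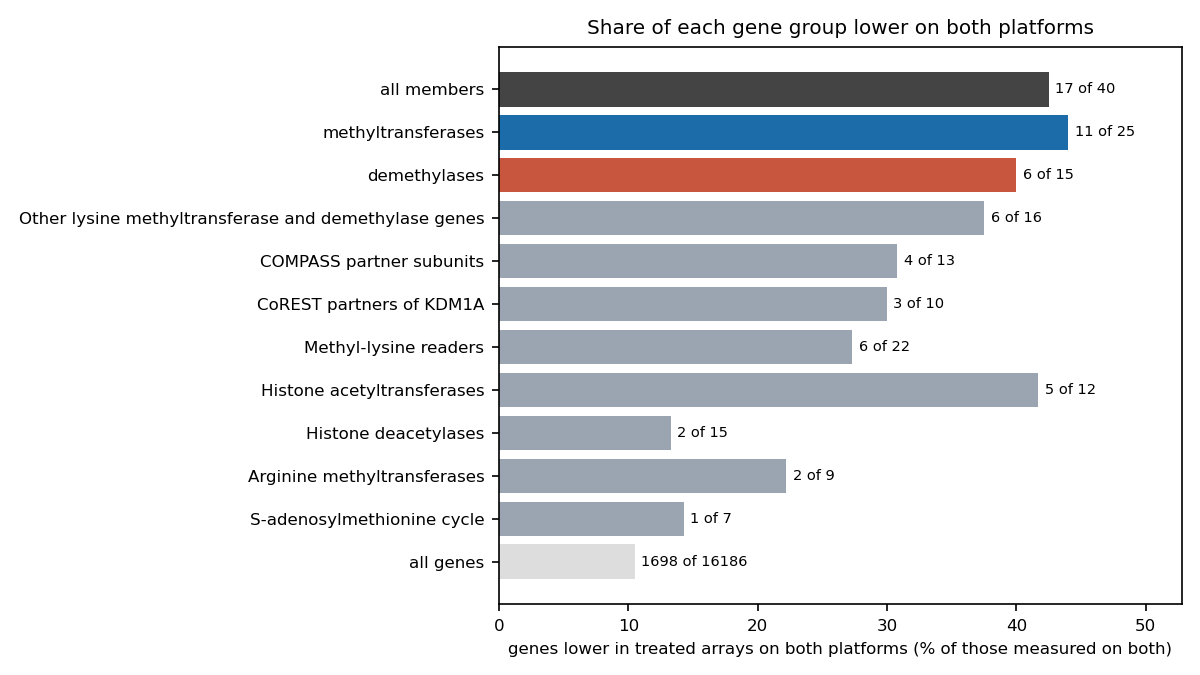
Share of the genes measured on both platforms that were lower in treated arrays on both, for the members, their methyltransferases and demethylases, related gene lists and all genes, as bars that start at 0 with the counts at their ends. The members stand at 17 of 40 and all genes at 1698 of 16186.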

How the data were processed

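Expression was measured in A2780 cells, 3 treated and 3 control arrays on each of AFFX and ABI. The authors deposited AFFX data as log2 values from RMA with quantile normalization, whose version is not given in the sources used here. For ABI, deposited values are intensity values after global median normalization, whose scale is not stated. They were taken as linear, being positive with array medians near 1, and turned to log2 here. Arrays have no read depth, so their number limits the precision.

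Probes annotated to 1 gene were used, matched by Entrez Gene ID, and probes of several genes or none entered only the p-value adjustment. Treated and control arrays were set against each other, unpaired, in limma 3.58.1 (R 4.3.3), over 54613 AFFX probe sets and 33096 ABI probes. Platform differences were tested as an interaction in limma across all genes. The methods' SAM was not run, since its filters could drop members. The scripts were tested on simulated data. Every member is named, and array values are given for members called alike on both platforms, for up to 4 per platform called on it alone with the largest changes, and for members with probes called in opposite directions. From other lists, up to 4 genes called alike with the largest changes are named. Members and lists were chosen with earlier results of these data known. Same-numbered replicates deviated together with r of -0.00667 to 0.327, so the numbers were not taken as pairs. Alternatives changed scaling, probe choice, dim-probe filter, fold limit, test, block, log scale and left-out arrays.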

Additional observations from a re-analysis of the deposited data

Results flagged for a closer look

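The change between treated and control arrays differed between the platforms for 11 of 40 members by limma's interaction test, and differences are given as ABI minus AFFX on the log2 scale, ± SE. Above 0, so with the lower change on AFFX, were KMT5B at 3.15 ± 0.16 (adjusted p = 3.59e-06), KMT2E at 2.29 ± 0.17 (adjusted p = 3.34e-05) and KMT2D at 1.80 ± 0.32 (adjusted p = 0.00422). SETD5 differed by 1.35 ± 0.20 (adjusted p = 0.0019) and KMT2A by 1.16 ± 0.29 (adjusted p = 0.0247). Under 0, so with the lower change on ABI, were EHMT1 at -2.14 ± 0.21 (adjusted p = 0.000162), KDM8 at -1.53 ± 0.32 (adjusted p = 0.0106) and SETD1B at -1.10 ± 0.17 (adjusted p = 0.00189). SETD3 differed by -0.79 ± 0.14 (adjusted p = 0.00484), KDM6A by -0.71 ± 0.18 (adjusted p = 0.0275) and KDM4A by -0.46 ± 0.11 (adjusted p = 0.0219).

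KMT5B, KMT2E, EHMT1, SETD1B, SETD5 and SETD3 kept the call in all 12 fits with 1 array left out. The KMT2D difference was lost without AFFX treated replicate 3 (0.52, adjusted p = 0.353), and that of KDM8 without the same array (-0.61, adjusted p = 0.305). KDM4A was lost without AFFX treated replicate 2 and AFFX control replicates 1 and 2 (adjusted p = 0.0586, 0.0579 and 0.0502). KMT2A was lost without each of the 6 AFFX arrays, with adjusted p between 0.0501 and 0.0755, while its difference stayed at 1.04 to 1.19. The test used a common variance per gene for both platforms, although median SD in treated arrays was 0.11 on AFFX and 0.30 on ABI. Over all genes, calls numbered 1696 to 1966 without an AFFX array, 2341 to 2984 without an ABI array and 2446 with all arrays. KDM6A was lost without each of the 6 AFFX arrays, ABI treated replicate 2 and ABI control replicates 1 and 2, with adjusted p between 0.0502 and 0.0845. With the probe of the highest mean for each gene, the differences of KMT5B, KMT2D and KDM8 no longer passed (adjusted p = 0.401, 0.219 and 0.203). The platforms use different probes, and the part of probe choice in these differences was not tested beyond this.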

How the results depend on the processing

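Of 815 alternatives run for the members with array values in the text, called or not, 711 kept direction and call, 83 kept the direction and lost the call, 8 gained one and 13 turned the direction. Of called changes, KMT2B on AFFX became 0.66 (adjusted p = 0.00102) without control replicate 3, in a range of -0.72 to 0.66 with 1 array left out, KMT5B on AFFX became 0.10 (adjusted p = 0.418) with the probe of the highest mean, and NSD2 on ABI became 0.24 (adjusted p = 0.298) with the mean of all probes. Of uncalled ones, EHMT1 on AFFX became -0.87 with hybridisation control centring, through another probe set. The probe of the highest mean gave -0.46 for EHMT1 and 0.061 for KMT5A on AFFX. SETD7 on AFFX became -0.28 with hybridisation control and -0.0077 with ribosomal centring, which gave -0.22 for KMT5B on ABI. KMT2E on ABI became 0.21 under quantile normalization and ranged over -0.090 to 0.026 with 1 array left out, and KMT2D on ABI over -0.29 to 0.084. The causes were not tested.

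Members lower on AFFX numbered 25, and 16 with the mean of all probes, 23 to 26 with 1 array left out. Members higher on AFFX numbered 0, with 9 under no fold limit and 0 to 2 with 1 array left out. Members lower on ABI numbered 20, and 14 to 18 with 1 array left out. The 1 member higher on ABI became 3 under quantile normalization and 2 without dim probes, and 0 under ribosomal centring, log2(intensity + 1), a 2-fold limit, the methods' t-test and the replicate block, with 0 to 1 when 1 array was left out. Median changes for methyltransferases became -0.20 on AFFX with the mean of all probes and -1.24 on ABI under ribosomal centring, with -0.79 to -0.63 on ABI when 1 array was left out. For demethylases the AFFX median became -0.655 under ribosomal centring, -0.35 with the mean of all probes and -0.71 to -0.48 with 1 array left out, and the ABI median became -1.68 under ribosomal centring.

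With the replicate number as a block, 25 members were lower on AFFX, 14 on ABI and 13 on both. Members lower on both ranged over 12 to 18 in all alternatives. Over all ABI genes, 1499 were lower with the block, against 2546 without it. Treated and control arrays come from 1 pool each, so the spread between cultures was not measured. ABI probes near the leukocyte markers limit what can be read for KMT2A, KMT2D and PHF8. The same limit holds for treated ABI means of the called members KMT2B (-1.12), EHMT1 (-1.08) and KDM2B (-0.84). It also holds for those of the uncalled members KDM7A (-1.29), KDM6B (-1.20), DOT1L (-0.94) and KMT5C (-0.92).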

Other observations

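KMT2C had no ABI probe of its own, but 6 ABI probes and 1 AFFX probe set are annotated to KMT2C together with BAGE2 and BAGE5. Their log2 changes, treated minus control, ran between -0.77 and 0.38 on ABI, and the AFFX probe set changed by 0.13. Which of the 3 genes each probe reads was not tested.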
